A study of Rattus norvegicus with 8 samples.

Results

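The lysosomal cathepsins described here are 8 protease genes, Ctsb, Ctsc, Ctsd, Ctsh, Ctsk, Ctsl, Ctss and Ctsz, of 14217 rat genes that had a probe set naming 1 gene. They were taken as a named list. Every probe set whose platform annotation names exactly 1 of them was used, which gave 10 probe sets, with Ctsc and Ctsl represented by 2 each. RNA of granulosa cells, the somatic cells around the oocyte, was hybridised to 8 Affymetrix arrays, 1 per sample. Per the series' design text, immature rats were given eCG, a gonadotropin that drives follicle growth, and 24 h later an antibody against eCG, after which follicles became atretic and 0% of oocytes gave offspring, or pre-immune serum, after which 30 to 50% did. The array labels hold only a number, so none of the arrays could be assigned to the antibody or the serum group. Neither strain nor exact age is given in the labels, and the sources used here do not give whether the arrays come from separate animals or from pools. Values are therefore reported array by array, with no means, errors or tests between treatments. Precision is limited by how few arrays there are.

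Cathepsins are made as inactive precursors, tagged with mannose 6-phosphate, carried to the lysosome and activated there at acid pH. Most members are papain-like cysteine proteases, whereas Ctsd encodes an aspartic protease. In the ovary, lysosomal proteolysis takes part in follicle degeneration and in the clearance of dead granulosa cells, and cathepsin L is also linked to ovulation in the mouse.

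The sequence before the start of Ctsd is shown because Ctsd had the widest spread over arrays and was the only 1 of the 7 members with a RefSeq promoter entry (Ctsb was not among the matched entries) in which the 6 letters CACGTG were found. CACGTG reads the same on both strands and is the core of the motif bound by Tfeb, a transcription factor of lysosomal genes. The 250 bases before the Ctsd start on GRCr8, at chr1:206968822-206969071 on the minus strand and read 5′ to 3′ from RefSeq, hold it 2 times, beginning 157 and 10 bases before the start and given in capitals.
Ctsd: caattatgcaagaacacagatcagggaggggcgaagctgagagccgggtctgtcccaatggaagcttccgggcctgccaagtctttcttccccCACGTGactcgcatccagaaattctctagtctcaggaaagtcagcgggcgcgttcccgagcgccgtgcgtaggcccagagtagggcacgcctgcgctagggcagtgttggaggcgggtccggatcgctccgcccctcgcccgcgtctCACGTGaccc
At least 1 match lay in the same window of 8.31% of 8799 measured genes and 2 or more in 0.841%. Among other lysosomal and autophagy genes it was found in 13 of 56 promoters (23.2%). A match of letters is a description of the sequence and does not show that a factor binds there.

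Signals below are the deposited values after scaling of arrays, and a gene's inner range is its second highest array divided by its second lowest, so that a single extreme array at either end does not set it. Each array has a floor, its 40th percentile (273 to 471), below which values were raised to the floor for all ranges. A gene was measured if its probe set exceeded the median of the array on 2 or more arrays, and where several probe sets passed, the one with the highest median stood for the gene. Levels are compared only within a probe set, because brightness differs between probes. No array has a known replicate, so no neighbours in the order of a gene's values can be said to differ beyond the spread between replicates. Granulosa markers were present: 9 of 10 listed were measured, 8 of these above the array's median on all 8 arrays, among them Cyp19a1 (inner range 4.20-fold) and Inhba (2.72-fold). From lowest to highest array Cyp19a1 ranged 20.8-fold, with 987 on array 2076 and 3582 to 20564 on the others. Fshr had no probe set naming it alone.

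All 8 cathepsin genes were measured, and 4 of them (Ctsd, Ctss, Ctsz and Ctsk) reached an inner range of 2-fold or more, as did 29.8% of the 10513 measured genes. The median inner range was 1.97-fold over the cathepsins and 1.71-fold over all measured genes. The members ran from 1.44-fold in Ctsb to 4.41-fold in Ctsd. Without array 2074 or without array 2076, 2 of the 8 reached 2-fold (Ctss and Ctsz), against 18.9% and 18.8% of measured genes. Over arrays 2194 to 2199 alone only Ctsz did, against 12.1% of measured genes. Fewer arrays narrow an inner range by construction.

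**Figure D1:**
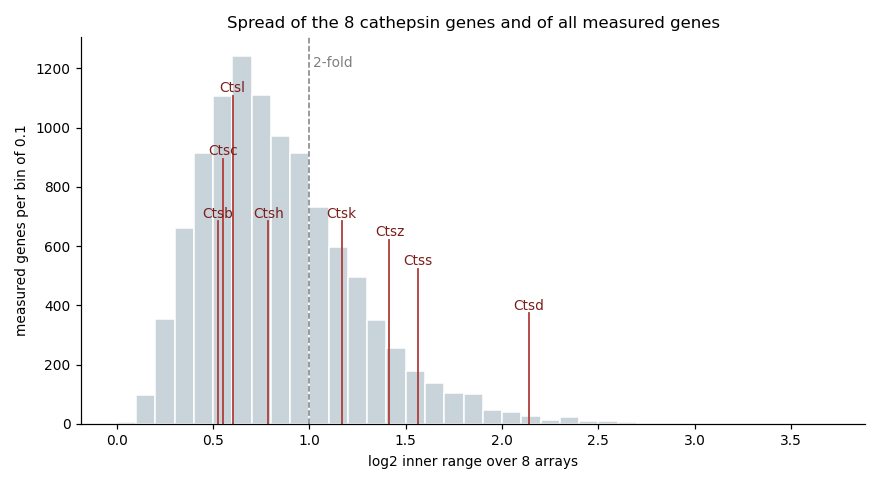
Histogram of the log2 inner range over 8 arrays for 10513 measured genes (grey bars, genes per bin of 0.1), with a red line for each of the 8 cathepsin genes and a dashed line at 2-fold. Ctsb, Ctsc, Ctsl and Ctsh lie left of the dashed line, and Ctsk, Ctsz, Ctss and Ctsd right of it, with Ctsd at 2.14 far into the upper tail.

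Ctsd, the aspartic protease of lysosomes, was read by 1 probe set (1367651_at). Its signal was 5555 on array 2074, 4814 on 2076, 1092 on 2194, 2099 on 2195, 812 on 2196, 1271 on 2197, 1799 on 2198 and 1405 on 2199. Arrays 2074 and 2076 lay above the other 6 with no overlap, and the step from the higher of the 6 to the lower of the pair was 2.29-fold. A pattern of both arrays above the other 6 was found in 13.6% of measured genes. The inner range of 4.41-fold exceeded that of 99.1% of measured genes, and the full range was 6.84-fold. The inner range depended on these arrays: it was 1.91-fold without 2074, likewise 1.91-fold without 2076, and 1.64-fold over the other 6 arrays alone.

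The 3 measured genes with profiles nearest to Ctsd were Gpi, Nr1h2 and Helz, where nearness is the mean absolute log2 difference over the 8 arrays after each gene is centred on its own median. Gpi, a glycolytic isomerase, differed from Ctsd by 0.18, with signals of 11753 and 13056 on arrays 2074 and 2076 and of 2219 to 4846 on the rest. Nr1h2, the oxysterol receptor LXR beta, differed by 0.20, and Helz, an RNA helicase gene, also by 0.20. Nr1h2 and Helz were at the floor on 6 arrays each, so their likeness rests on being measured on arrays 2074 and 2076 and not elsewhere. Among the lysosomal genes, Psap stood near as well. It encodes prosaposin, the precursor of sphingolipid activator proteins, and gave 7846 on array 2074, 6129 on 2076 and 1868 to 3440.2 on the other 6. Psap differed from Ctsd by 0.46, and 1.96% of measured genes were nearer. Of the other cathepsins Ctsz was nearest to Ctsd, at 0.63, with 13.6% of measured genes nearer.

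**Figure D2:**
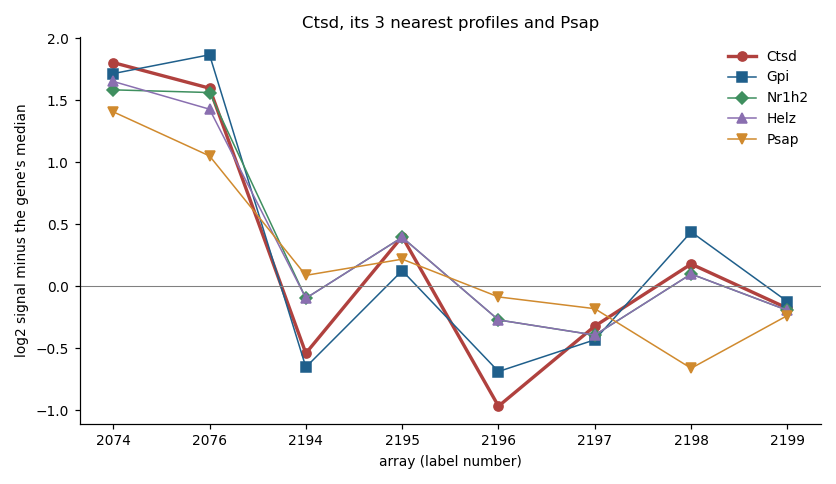
Log2 signal minus the gene's own median (vertical axis, after the floor) on each of the 8 arrays (horizontal axis, by label number) for Ctsd, the 3 genes with the nearest profiles and Psap; lines only join the points of a gene. All 5 genes are highest on arrays 2074 and 2076, where Ctsd stands 1.80 and 1.60 above its median, and Nr1h2 and Helz coincide on the other 6 arrays because both are at the floor there.

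Ctss encodes a cysteine protease that is active at neutral pH and trims the invariant chain of class II antigen-presenting molecules. Its single probe set (1387005_at) gave 2533 on array 2074, 857 on 2076, 1199 on 2194, 2009.6 on 2195, 2232 on 2196, 709 on 2197, 1755 on 2198 and 3205 on 2199. Arrays 2197, 2076 and 2194 were the 3 lowest and array 2199 was the highest. The inner range of 2.96-fold exceeded that of 94.4% of measured genes, and the full range was 4.52-fold. With arrays left out singly it stayed between 2.11-fold and 2.96-fold, and over arrays 2194 to 2199 it was 1.85-fold. The nearest profiles were those of Arhgap45 (0.26), Nexmif (0.27) and LRRTM1 (0.28), none of them as close as Gpi was to Ctsd.

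Macrophage markers are given beside Ctss because their sum had a like order of arrays. Of 14 listed markers 11 were measured, and their summed signal was 12863 on array 2074, 7427 on 2076, 9918 on 2194, 10745 on 2195, 11301 on 2196, 6549 on 2197, 10993 on 2198 and 12175 on 2199. From the lowest array up, the sum ran 2197, 2076, 2194, 2195, 2198, 2196, 2199, 2074, and Ctss ran 2197, 2076, 2194, 2198, 2195, 2196, 2074, 2199. The 3 lowest arrays were thus the same and in the same order. Of the 11 markers, after the floor, 1 lay above its own median on array 2197, 3 on 2076, 4 on 2194, 6 on 2196, 7 on 2074, 7 on 2195, 8 on 2198 and 8 on 2199. Of all measured genes, 44.4% did on array 2197, 45.3% on 2076, 55.9% on 2198 and 61.2% on 2195. The counts depend on the floor, which was lowest on array 2197 (273) and highest on 2195 (471). At the floor were 5 of the 11 markers on 2197 and 4 on 2195. Much of the sum came from Lyz2, lysozyme, with 1498 on array 2197, 2532 on 2076, 2677 on 2194, 4595 on 2196 and 5460.1 on array 2074. The order of the sum rests on it. With Lyz2 left out, array 2076 was the lowest, 2196 came below 2194, and 2074 was no longer the highest. Single markers did not all share the order of the full sum. On array 2074, Csf1r, the receptor for a macrophage growth factor, was at the floor with 179, as was Aif1, a calcium-binding protein of macrophages, with 120.0, and Cd68, a lysosomal glycoprotein of macrophages, had 503 against a median of 749. Mrc1, the mannose receptor, was at the floor on 3 arrays, and C1qa, C1qb and C1qc on 4 or 5 each. The summed signal of measured pan-leukocyte markers (3 of 7) ran from 970 on array 2194 to 1878 on array 2198, with 1856 on 2074 and 1810 on 2196. Ptprc, Coro1a, Cd53 and Cd52 were not measured, nor were the macrophage markers Adgre1, Itgam and Tyrobp. The part of other cell types in the Ctss values was not tested, and in such bulk samples more cells of a type and more RNA per cell cannot be told apart.

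**Figure D3:**
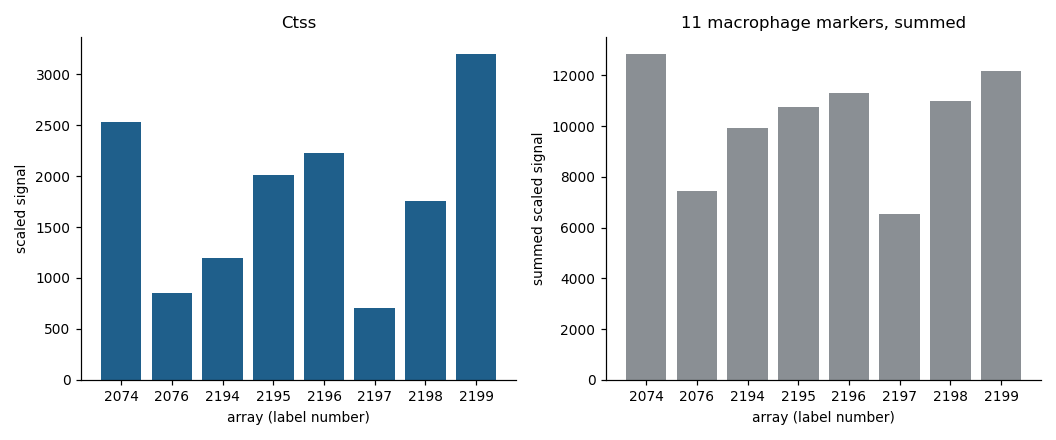
Scaled signal of Ctss (left) and summed scaled signal of the 11 measured macrophage markers (right) on each of the 8 arrays, by label number. Both are lowest on array 2197, at 709 and 6549, followed by arrays 2076 and 2194, and both have arrays 2074 and 2199 as their 2 highest. The order of the sum rests on Lyz2.

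Ctsz, also called cathepsin X, removes single residues from the carboxyl end of proteins. Its probe set (1370885_at) gave 2797 on array 2074, 1983 on 2076, 2133 on 2194 and 2686 on 2195. On arrays 2196, 2197, 2198 and 2199 it gave 1007, 1107, 1191 and 1005. These 4 arrays lay close together and below the others. The inner range was 2.67-fold, above that of 91.4% of measured genes, and Ctsz was the only member to keep at least 2-fold over arrays 2194 to 2199 (2.13-fold). Its nearest profiles were those of Slc19a2, a thiamine transporter (0.18), C1qb, a chain of complement C1q (0.19, at the floor on 5 arrays), and Oplah, an enzyme of glutathione turnover (0.21, at the floor on 3). On array 2195, where Ctsz was second highest, C1qb had 283 and was raised to that array's floor of 471. The likeness of C1qb to Ctsz on that array is thus made by the floor.

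Ctsk, the collagen-degrading cathepsin best known from osteoclasts, had signals of 661 on array 2074, 687 on 2076, 1454 on 2194, 1543 on 2195, 1723 on 2196, 974 on 2197, 880 on 2198 and 804 on 2199. Arrays 2074 and 2076 were the lowest, opposite to Ctsd, and this pattern of both below the other 6 was found in 14.5% of measured genes. The gap to the next array was small, from 687 to 804. Arrays 2194, 2195 and 2196 were the 3 highest. The inner range was 2.25-fold, above that of 81.1% of measured genes, but 1.91-fold when either of arrays 2074 and 2076 was left out and just under 2-fold (1.99998) after quantile normalization. The nearest profiles were those of Syngr3 (0.13), Arhgap26 (0.14) and Ube3d (0.16), which were at the floor on 4, 2 and 3 arrays. Ctsd and Ctsk were the 2 cathepsins of 8 in which arrays 2074 and 2076 both lay beyond the other 6, and in either direction this held for 28.1% of measured genes, so the cathepsins did not stand apart in this count.

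Ctsb and Ctsl, a carboxydipeptidase and an endopeptidase that do much of the general proteolysis of lysosomes, varied little. Ctsb (1367646_at) gave 23627 on array 2074, 21409.8 on 2076, 22299 on 2194, 20893 on 2195, 22368 on 2196, 15323 on 2197, 15559 on 2198 and 16327 on 2199. Arrays 2197, 2198 and 2199 were below the other 5, by a step of 1.28-fold. The inner range of 1.44-fold exceeded that of 21.6% of measured genes. Ctsl was read by a brighter probe set (1370244_at) with 9869 on array 2074, 7719 on 2076, 9766 on 2194, 7933 on 2195, 8313 on 2196, 6440.1 on 2197, 7689 on 2198 and 6297 on 2199. Its inner range was 1.52-fold, above that of 29.9% of measured genes. The second Ctsl probe set (1370245_at) had a like inner range, 1.46-fold, with signals from 2190.2 on array 2076 to 4163 on array 2194. The 2 probe sets lay on the same side of their medians on 6 of 8 arrays and differed by a mean of 0.26 on the log2 scale. Array 2074, highest for the first, had 3012 and was near the middle for the second.

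Ctsh, an aminopeptidase, had an inner range of 1.73-fold, wider than in 50.9% of measured genes. Its probe set (1386899_at) gave 1635 on array 2074, 937 on 2076, 1335 on 2194, 913 on 2195, 977 on 2196, 683 on 2197, 1515 on 2198 and 1576 on 2199. Array 2197 was the lowest, as it was for Ctss and Ctsb.

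Ctsc encodes dipeptidyl peptidase 1, which activates the granule proteases of immune cells, and its 2 probe sets disagreed. The one that stood for the gene (1374778_at) gave 787 on array 2074, 706 on 2076, 603 on 2194, 254 on 2195, 587 on 2196, 847 on 2197, 577 on 2198 and 1045 on 2199, an inner range of 1.47-fold. It was at the floor on array 2195. The other (1368280_at) was highest on that array, with 1384, and was at the floor on 4 arrays, 2074, 2197, 2198 and 2199. They lay on the same side of their medians on 2 of 8 arrays, and on array 2195 they differed by 2.46 on the log2 scale. No order of arrays was therefore read for Ctsc.

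**Figure D4:**
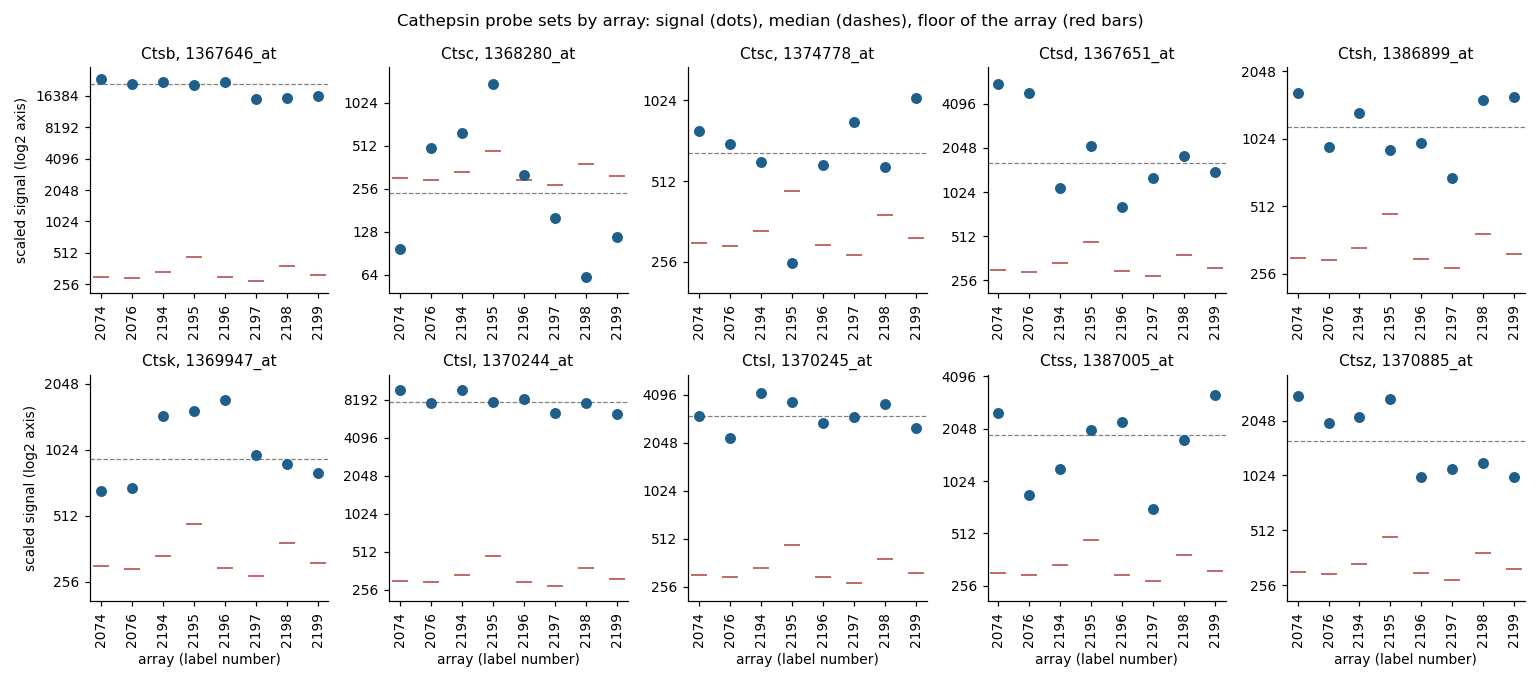
Scaled signal (vertical axes, log2 scale) on each of the 8 arrays (horizontal axes, label numbers) for the 10 cathepsin probe sets; dashed lines are medians over arrays and red bars the floor of each array. Ctsd is highest on arrays 2074 and 2076, Ctsz is low on arrays 2196 to 2199, Ctsb and both Ctsl probe sets stay in a narrow band, and the 2 Ctsc probe sets run in different orders.

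Seen by array, 2074 had the highest signal in 5 of the 8 cathepsin genes (Ctsb, Ctsd, Ctsh, Ctsl and Ctsz), and it was the highest array in 14.2% of measured genes. On this array 7 of the 8 stood above their own median, all but Ctsk, against 46.2% of measured genes. The median deviation from a gene's own median there was 0.38 over the cathepsins and -0.03 over all measured genes, on the log2 scale. For Ctsl the count rests on the brighter probe set. The height on array 2074 was not particular to the cathepsins. The granulosa marker sum was also highest there, with 344524 against 267200 on array 2199, its lowest. Not all of its markers went this way. Cyp19a1 (6422, median 10735) and Fst, follistatin (97249, median 123648), lay below their medians on array 2074, and the other measured ones above. The sums of cathepsin inhibitors, other hydrolases, membrane and pump genes and autophagy genes, lists described below, were highest on array 2074 too. Such sums follow their brightest genes. That of membrane and pump genes, of which Cd63 was the brightest, was nearly level, with 260717 on 2074, 258759 on 2198 and 257314 on 2195. The sum of other cathepsins was highest on array 2198, and that of processing and transport genes on 2076. Array 2197 had the lowest signal in 3 of the 8 genes (Ctsb, Ctsh and Ctss), against 11.6% of measured genes, and 6 of the 8 stood below their own median there, against 55.6%. The median deviation was -0.39 over the cathepsins and -0.04 over all measured genes. On both arrays Ctsc entered the counts and the median by 1374778_at alone, which stood above its own median on each. Its other probe set (1368280_at) was at the floor on both, with 96.5 on 2074 and 161 on 2197, so the place of Ctsc is uncertain. Of the 3 measured red blood cell markers, Hbb, a globin gene, gave 45704 on array 2074, 3709 on 2197 and 5817 to 12573 on the other 6. Alas2, an enzyme of haem synthesis, gave 3193 on array 2074 and was at the floor on 2 arrays, 2197 among them. Slc4a1, the red cell anion exchanger, ran the other way, with 26.6, below the floor, on array 2074 and 483 on 2197. The macrophage sum above was highest on array 2074 and lowest on 2197, both of which rest on Lyz2. The part of these in the cathepsin values was not tested. The theca and stromal sum (8 of 10 markers measured) was highest on array 2198 with 7963, closely followed by array 2074 with 7917. It was 5741 on array 2195 and lowest on 2194 with 3448. The endothelial (4 of 8), oocyte (3 of 8) and T cell and neutrophil (3 of 8) sums were highest on array 2195, with 4140, 2498 and 3992, against lowest values of 761, 765 and 1209 on arrays 2196, 2197 and 2196. Array 2195 was the highest array in 23.5% of measured genes and had the highest floor (471). The 4 endothelial markers were at the floor on 3 to 5 arrays each, as were some of the others, and the sums use signals before the floor.

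Between members, the median of the mean absolute log2 differences over the 28 pairs was 0.61, and over all pairs of measured genes it was 0.50. Ctsb and Ctsl were the closest pair, at 0.15, and lay on the same side of their medians on 6 of 8 arrays. Ctsd and Ctsk were the farthest apart, at 1.05, on the same side on 2 of 8 arrays. Ctsd and Ctss followed at 1.005 and Ctss and Ctsz at 0.90, while Ctsd and Ctsz differed by 0.63 and lay on the same side on 6 of 8 arrays. The Ctsz profile was closer to those of Ctsb (0.41) and Ctsl (0.42) than to that of any other cathepsin. All pairs share the same 8 arrays, and the measure grows with the spread of the genes by construction. Pairs with Ctsc rest on 1374778_at alone, with which its other probe set disagreed.

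**Figure D5:**
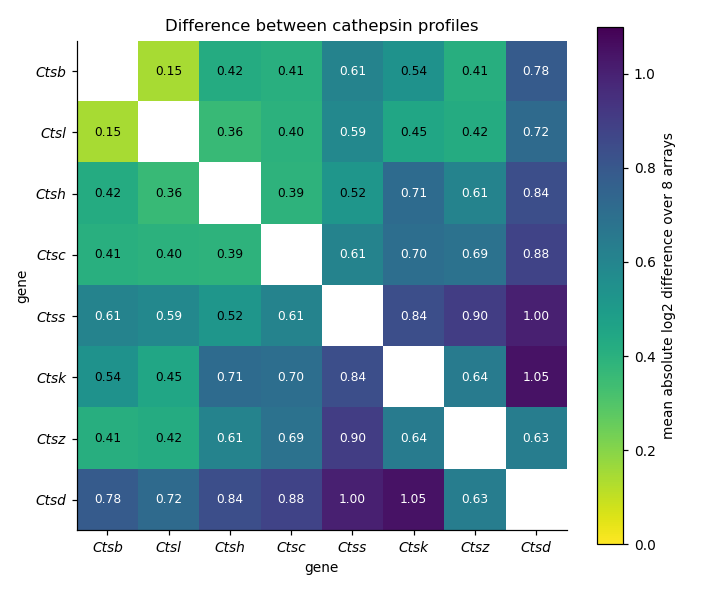
Mean absolute log2 difference between the median-centred profiles of each pair of the 8 cathepsin genes over 8 arrays, printed in each cell and shaded from small (yellow) to large (dark). Ctsb with Ctsl is the smallest at 0.15, and the row of Ctsd holds the largest, 1.05 with Ctsk and 1.005 with Ctss.

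The genes that control, carry or accompany the cathepsins had spreads like those of genes at large. Over 6 lists of other cathepsins, inhibitors, processing and transport genes, hydrolases, membrane and proton pump genes and autophagy genes, 70 genes were measured. At least 2-fold was reached by 19 of these (27.1%), with a median of 1.70-fold, against 4 of the 8 cathepsins. Arrays 2074 and 2076 both lay above the other 6 in 20 of the 70 (28.6%), against 13.6% of all measured genes, and both below in 8 (11.4%), against 14.5%. Among hydrolases this was 5 of 21 above and 0 below, among autophagy genes 6 of 14 above and 2 below, among membrane and pump genes 6 of 19 above and 4 below, and among processing and transport genes 3 of 9 above and 1 below. Among other cathepsins it was 0 of 3 above and 1 below, and among inhibitors 0 of 4 in either direction.

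Of the other cathepsins, 3 of 12 were measured. Ctsf, a papain-like protease, had an inner range of 2.56-fold, Ctso of 1.75-fold with 3 arrays at the floor, and Ctsa, the protective protein of lysosomal galactosidase and sialidase, of 1.62-fold. Cystatins block papain-like cathepsins, and 3 of them were measured. Cst3, the secreted cystatin C, had 1.60-fold, from 1132 on array 2199 to 2194 on array 2195. Cstb, the intracellular cystatin B, had 1.35-fold, with 7747 on array 2074 as its highest. The cystatin gene Cst8 (1.78-fold) and the serpin Serpinb1a (2.18-fold) were at the floor on 3 arrays each.

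Among 9 genes of processing and transport, the widest were Psap, at 2.44-fold, and Nagpa, the enzyme that uncovers the mannose 6-phosphate tag, at 2.10-fold. Lgmn, the asparaginyl protease that processes cathepsins B, H and L to their chain forms, had the narrowest inner range, 1.17-fold. It gave 1698 on array 2074 and 695 to 1097 on the others. Among hydrolases the widest were Gaa, the acid glucosidase, at 2.52-fold, and Arsa, arylsulfatase A, at 2.23-fold, and the narrowest was Acp2, an acid phosphatase, at 1.19-fold. Among membrane and pump genes Atp6v1a, the catalytic subunit of the proton pump, had 2.42-fold with 4810.1 and 4830.4 on arrays 2074 and 2076, below all the others, while Lamp1, a main lysosomal membrane glycoprotein, had 2.18-fold with 16445 and 14443 on that pair, above all the others. Cd63, a tetraspanin of late endosomes, had 1.13-fold. Among autophagy genes Gabarapl1, an Atg8 family member, had 2.46-fold and the protease gene Atg4b 2.18-fold, and Atg5, part of the conjugation machinery, had 1.23-fold.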

How the data were processed

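Per the labels, biotin-labelled total RNA of rat granulosa cells was hybridised to Affymetrix arrays. The deposited table gives a signal intensity per probe set on a linear scale, made by the authors with MAS5 per the submitters' processing notes (no version is named). Means trimmed by 2% at both ends were 1500.5 to 1500.6 on all arrays, so the authors had scaled them. MAS5 is noisy at low signal, and no detection calls were used.

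Of 31099 probe sets, 57 controls were left out. Log2 signals were shifted so that the 10109 probe sets above the array's median on all 8 arrays had a common median (factors 0.959 to 1.06). The floor, filter and brightest probe set are as given above. Symbols came from the platform annotation, which can be old, updated by gene identifier (20764 of 20832 probe sets with 1 symbol matched) through a table of GRCr8 used only for names.

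The members and lists were chosen with earlier results of these data known. Named are all members; the 3 nearest genes to each member of at least 2-fold; of each pathway list up to 2 widest genes and the narrowest; all measured other cathepsins and inhibitors; and up to 2 widest markers of each cell type, of which only those beside a result are given. Lyz2, Aif1, Cd68, Slc4a1, Fst, C1qa, C1qc and the unmeasured markers were named after their values were seen. The alternatives replaced the scaling (none, or quantile normalization), the floor (25th percentile, or none), the filter (8 arrays, or none), the choice of probe set (mean of all), the inner by the full range, and the arrays (each left out, or 2194 to 2199 alone). Python 3.11.15, numpy 2.4.6 and pandas 2.3.3 were used, and the measure of spread was tested on simulated data.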

Additional observations from a re-analysis of the deposited data

Results flagged for a closer look

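None of the 10 cathepsin probe sets had an array far from the other 7 by Dixon's ratio, the gap to the nearest array over the whole range, at its critical value for 8 samples. Over 57 profiles checked, 2 did. The critical value is set for about 1 in 20 by chance. That rate need not hold here, because values were raised to the floor and many profiles were chosen by their spread. Alas2, an enzyme of haem synthesis used as a red blood cell marker, was high on array 2074 (ratio 0.635), the array with the highest signal in 5 cathepsin genes. Cd8a, a T cell marker, was high on array 2195 (ratio 0.585).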

How the results depend on the processing

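The number of cathepsin genes that reached 2-fold, 4 with the settings of the report, was 2 to 4 when arrays were left out singly (2 without array 2074 and 2 without array 2076) and 1 over arrays 2194 to 2199 alone. Under the other settings it was 4, or 6 with the full range (which 71.4% of measured genes reached), but after quantile normalization Ctsh (2.04-fold) took the place of Ctsk (1.99998-fold). The share of measured genes at 2-fold, 29.8% in the report, moved while the count of 4 did not. It was 39.8% with the floor at the 25th percentile or with none. With the filter of 8 arrays it was 19.4%, and with no filter 22.2%. The inner range of Ctsd stayed between 3.77-fold and 4.62-fold except without array 2074 or 2076 (1.91-fold each), over arrays 2194 to 2199 (1.64-fold) and as the full range (6.84-fold). Ctss had 1.85-fold over arrays 2194 to 2199 and a full range of 4.52-fold, and Ctsc a full range of 2.22-fold. Those of Ctsb, Ctsh, Ctsk, Ctsl and Ctsz moved by less than 1.5 times under all 17 alternatives. The 2 genes with arrays 2074 and 2076 beyond the other 6 became 3 after quantile normalization, with Ctsb added. The median difference between members ran from 0.53 to 0.67. With probe sets required above the median on all 8 arrays, Ctsc was not measured. The causes were not tested. No paired analysis was possible because the labels give no groups. Ctsc lies near the floor, so its values are the least certain.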

Other observations

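Steps in the order of arrays were largest in Ctsd and Ctsz among the cathepsins. In Ctsd the largest step, 2.29-fold, lay between the 6 lower arrays (812 to 2099) and arrays 2076 and 2074 (4814 and 5555), and was larger than the largest step of 96.6% of measured genes. In Ctsz it was 1.66-fold and lay between 4 lower arrays, with 1005 on 2199, 1007 on 2196, 1107 on 2197 and 1191 on 2198, and 4 higher ones, with 1983 on 2076, 2133 on 2194, 2686 on 2195 and 2797 on 2074. A smaller largest step was found in 81.0% of measured genes. In Ctsb the step of 1.28-fold lay between arrays 2197, 2198 and 2199 (15323 to 16327) and the other 5 (20893 to 23627), and 31.5% of measured genes had a smaller one. The arrays fell apart differently in each of the 3 genes, and none of these splits was set against a treatment.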
